A study of Sus scrofa with 15 samples.

Results

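Sr02R06C04 and Sr01R07C02 are 2 printed positions of a pig array, followed here in backfat of Taihu and Landrace pigs from month 1 to month 5. They are 2 of 140 distinct positions, of which 138 could be tested. Each code gives the row of blocks, the row and the column of a spot, and every position was printed in 4 copies. The pair was chosen from measured values: of the largest Taihu minus Landrace difference that each of the 138 positions reached at any month, theirs ranked 1 and 2, and both occurred at month 2. Those differences were log2 2.17 for Sr02R06C04 and 1.77 for Sr01R07C02, and the next 2 positions in that order, not members, had log2 1.65 and 1.50, also at month 2. The month 2 breed difference and the peak of the Taihu course are therefore described without a test.

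Backfat is the white adipose tissue under the skin of the back, where fat cells store triglyceride, and it thickens as pigs grow. Taihu pigs are a fat type of Chinese origin and Landrace pigs a lean type of European origin, and genes of fat storage, growth of the tissue and its blood and connective cells are commonly followed in such a comparison. On a two-colour array, RNA samples labelled with the dyes Cy5 and Cy3 compete for the same spots, so each array measures a ratio directly, and a level only through the brightness of its spots. The files pair no position with a gene, so nothing is said of what these transcripts encode, no sequence is shown, and the tissue could not be checked against its defining markers.

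The study set a fat type against a lean type of pig in backfat and followed both through growth. Total RNA is taken as 10 samples, 1 for each of Taihu and Landrace at months 1, 2, 3, 4 and 5, each on 3 of 15 arrays. The array titles give only breed and month, so arrays of the same breed and month are assumed to share their RNA. On 5 breed arrays Taihu (Cy5) was set against Landrace (Cy3) at the same month. On 5 Taihu and 5 Landrace loop arrays neighbouring months were set against each other, and month 5 against month 1. The labels give no genotype, sex or feeding, and do not state if an RNA is that of 1 animal or of a pool. With 1 RNA sample assumed for each breed and month, the p-values below measure disagreement between arrays and not the spread between pigs. In bulk tissue, fewer cells of a type and less RNA per cell cannot be told apart.

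In all 30 channel readings, both positions exceeded their background by 2 background SDs or more. None of their spots was marked by the image software or reached the scanner ceiling. Single spots ranged between 172.8 and 51042 net intensity units (mean signal minus median background) at Sr02R06C04 and between 108.8 and 10232 at Sr01R07C02. Over all positions, the median signal was 3.53 to 24.0 times background in Cy5 and 5.53 to 19.7 times in Cy3. The net intensity of the 4 copies differed within a reading by a median of 2.07 times at Sr02R06C04 and 1.95 times at Sr01R07C02, and by up to 9.86 and 11.4 times. Their ratios were steadier. The SD of the 4 log2 ratios had a median of 0.14 and a highest value of 0.39 at Sr02R06C04. At Sr01R07C02 these were 0.16 and 0.67. The SD of 0.67 was on the array of Taihu month 2 over month 3, where the copies differed 11.4 times in Cy5 and 3.1 times in Cy3.

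One array went against its labels and bears most on the values of Taihu months 4 and 5. Over the 138 positions other than the pair, each reading was expressed as its deviation from the mean of its dye, and readings of the same labelled RNA were correlated. The 4 pairs that involved the array labelled Taihu month 4 over month 5 had Pearson r between -0.68 and -0.38, and the other 26 pairs had r between -0.21 and 0.95 with a median of 0.63. Only 2 of those 26 were below 0, and both involved the Landrace channel of the month 3 breed array (-0.21 and -0.022). The Taihu channel of that array had r of 0.70 and 0.88 with the other Taihu month 3 readings. Agreement was also weak on the array of Landrace month 2 over month 3. Its month 2 channel had r of 0.00080 and 0.13 with the other Landrace month 2 readings, and 0.34 with a Landrace month 3 reading. Its month 3 channel had r of -0.21 with the month 3 breed array and 0.45 with the remaining Landrace month 3 reading. These 2 arrays were kept in the fits below, apart from those that left out each array in turn. At the pair itself, the array labelled Taihu month 4 over month 5 gave high levels in both channels where the other arrays of the same RNA gave low ones. It also held the most spots at the scanner ceiling (36, against 3 to 23 on the others). What is on this array was not tested, and the tests and fitted differences are given with all 15 arrays and without it.

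**Figure D1:**
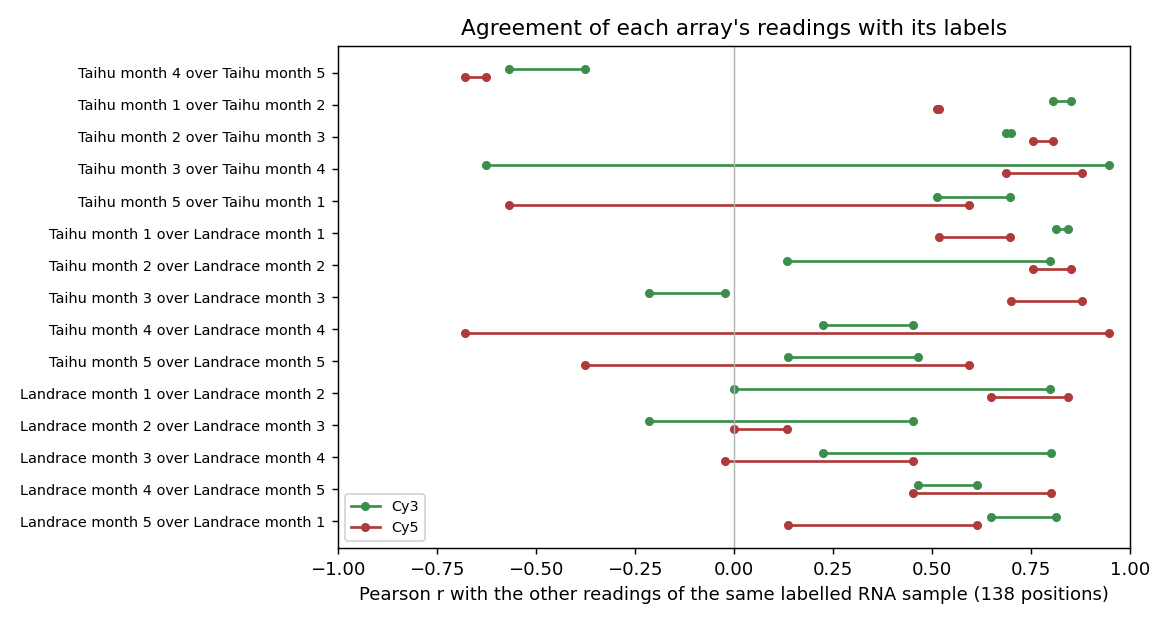
Pearson r between the readings of each array (rows, named Cy5 sample over Cy3 sample) and the other 2 readings of the same labelled RNA, over 138 positions, as lower and higher value joined by a line, with Cy3 in green and Cy5 in red. The array labelled Taihu month 4 over month 5 has r between -0.68 and -0.38 in both dyes, and it also supplies the negative ends of the lines of the other Taihu month 4 and month 5 readings.

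Sr02R06C04 was brightest in Taihu at month 2. As log2 net intensity minus the median of the 140 positions in the same reading, Taihu month 1 read 1.81, 2.16 and 2.72, Taihu month 2 read 3.87, 3.94 and 4.01, and Taihu month 3 read -2.12, -1.16 and 0.52. The 3 Taihu month 2 readings lay above every other reading of this position outside the array labelled Taihu month 4 over month 5, and had net intensities of 12074 to 32832. At Taihu month 4 the levels were -2.57 and -1.40, with net intensities of 190.5 and 742.2, but 4.49 on the array labelled Taihu month 4 over month 5, where the net intensity was 41654. Taihu month 5 read 0.59 and 0.68, but 3.36 on that array. Apart from it, the 2 Taihu month 5 readings lay above all readings of Taihu month 4.

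The Landrace course of Sr02R06C04 started high, and every later month was lower than month 1. Landrace month 1 read 2.82, 3.37 and 3.50, Landrace month 2 read 0.16, 0.81 and 1.17, and Landrace month 3 read -0.80, -0.48 and -0.02. Landrace month 4 read -1.07, -0.55 and -0.35, and Landrace month 5 read -1.42, -1.09 and 0.76. Taihu lay below Landrace at month 1 and above it at month 2 without overlap of the readings. At month 3 the readings of the breeds overlapped, at month 4 they did not once the array labelled Taihu month 4 over month 5 was left out, and at month 5 they overlapped without that array.

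Sr01R07C02 was dimmer, and its mean level was also highest in Taihu at month 2 (1.48). Here the Taihu month 2 readings overlapped those of Landrace month 1 (mean 1.14). Taihu month 1 read -0.44, 0.35 and 0.40, Taihu month 2 read 1.02, 1.52 and 1.91, and Taihu month 3 read -2.43, -2.17 and -2.16. The 3 Taihu month 2 readings had net intensities of 2755, 5098 and 6940, and the 3 Taihu month 3 readings had 231.4, 298.6 and 485.2. At Taihu month 4 the levels were -2.62 and -2.33, but 1.97 on the array labelled Taihu month 4 over month 5. Taihu month 5 read -2.55 and -1.66, but 1.01 on that array. Unlike at Sr02R06C04, the Taihu month 5 readings overlapped those of month 4 apart from that array.

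In Landrace, Sr01R07C02 was brightest at month 1. Landrace month 1 read 0.82, 1.07 and 1.54, Landrace month 2 read -1.41, -0.91 and -0.55, and Landrace month 3 read -1.61, -0.66 and -0.57. Landrace month 4 read -1.74, -1.69 and -1.40, and Landrace month 5 read -3.13, -2.19 and -1.41. The readings of the breeds did not overlap at months 1, 2 and 3, with Taihu the higher at month 2 alone. At month 4 they did not overlap outside the array labelled Taihu month 4 over month 5, with Taihu lower, and at month 5 they overlapped without that array.

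**Figure D2:**
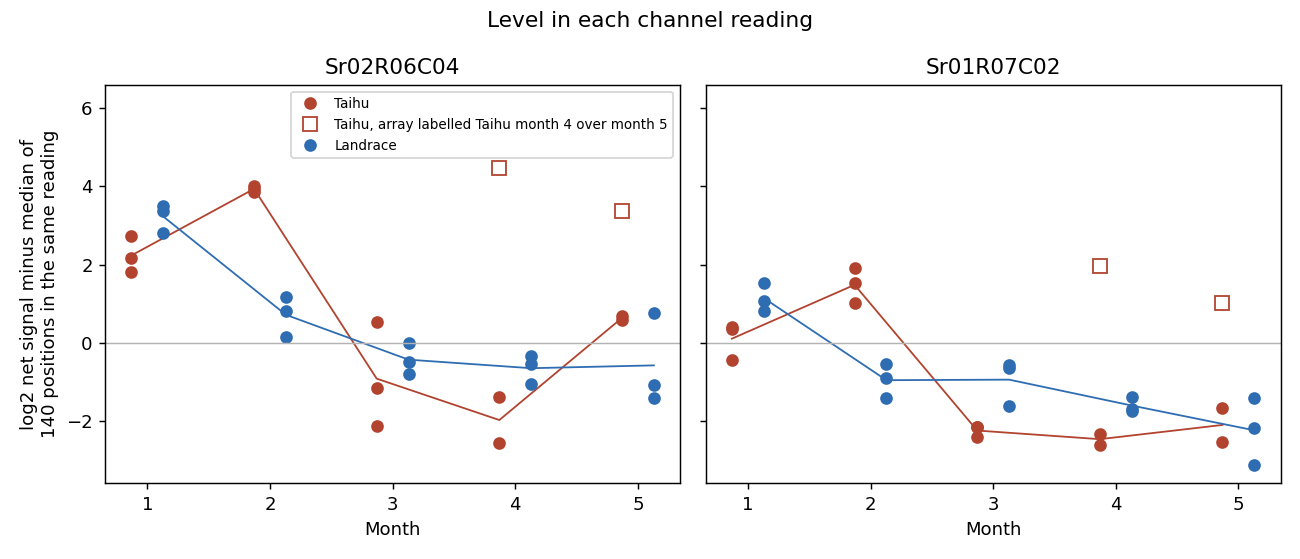
Level of Sr02R06C04 (left) and Sr01R07C02 (right) in each of 30 channel readings by month, as log2 net signal minus the median of 140 positions, with Taihu in red left of Landrace in blue, lines through the means of the filled points, and open squares for the array labelled Taihu month 4 over month 5. The 3 Taihu month 2 points stand above the Landrace month 2 points at both positions, and the open squares lie far above the filled Taihu points of months 4 and 5.

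A fit of all log2 ratios, with 1 level for each RNA sample and a term for the dye, joins the arrays into 1 course for each position. Levels are given from the mean of the 10 RNA samples. For Sr02R06C04 (SE 0.37) the fitted Taihu levels at months 1 to 5 were 0.66, 1.96, -1.38, -1.06 and -0.78, and the Landrace levels were 1.93, -0.21, -0.12, -0.0014 and -1.01. The highest were Taihu month 2 and Landrace month 1, which differed by less than the SE of a level, then Taihu month 1. The next 3, Landrace months 4, 3 and 2, also lay within the SE of each other, as did the lowest 4, Taihu month 5, Landrace month 5, Taihu month 4 and Taihu month 3, from each neighbour to the next.

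For Sr01R07C02 (SE 0.22) the fitted Taihu levels at months 1 to 5 were 0.28, 1.98, -1.39, -1.01 and -0.92, and the Landrace levels were 1.47, 0.22, 0.36, -0.22 and -0.77. Taihu month 2 was highest and Landrace month 1 second, further apart than the SE of a level. Landrace month 3, Taihu month 1 and Landrace month 2 followed within the SE of each other. Taihu month 3 was the lowest level at both positions. Without the array labelled Taihu month 4 over month 5 the Taihu month 4 and month 5 levels moved to -1.62 and -0.0017 for Sr02R06C04 and to -1.44 and -0.31 for Sr01R07C02, so that Taihu month 4 became the lowest level of Sr02R06C04.

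The largest step in both courses was the loss between months 2 and 3 in Taihu. Taihu month 3 minus month 2 was log2 -3.34 (SE 0.47) for Sr02R06C04, a level 10.1-fold lower, and -3.38 (SE 0.28) for Sr01R07C02, 10.4-fold lower. On the array of Taihu month 2 over month 3, the 4 copies of Sr01R07C02 ranged from log2 2.83 to 4.36. Their SD of 0.67 was the highest on any array. With the array labelled Taihu month 4 over month 5 left out the steps were -3.62 and -3.59. Taihu month 2 minus month 1 was log2 1.30 and 1.70, and 1.03 and 1.48 without that array. In Landrace the same interval went the other way: Landrace month 2 minus month 1 was log2 -2.14 (SE 0.47) for Sr02R06C04 and -1.25 (SE 0.28) for Sr01R07C02, and -2.30 and -1.37 without it. Landrace month 3 minus month 2 was log2 0.09 and 0.15, and -0.07 and 0.02 without it, less than its SE throughout. The array that measured this step directly, Landrace month 2 over month 3, had the weak agreement given above. These steps use month 2 and are descriptions.

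At month 2 the Taihu minus Landrace difference of the fit was log2 2.17 (SE 0.50) for Sr02R06C04, 4.50-fold higher in Taihu, and 1.77 (SE 0.30) for Sr01R07C02, 3.40-fold higher in Taihu. These were log2 2.39 and 1.94 without the array labelled Taihu month 4 over month 5. Of the 138 positions, 33.3% passed the threshold for the breed difference at month 2, from which nothing is read for the pair. Each month's breed difference can also be reached by 3 separate routes without dye correction: the breed array of the month, the month before with its breed array, and the month after with its breed array. At month 2 these routes gave log2 2.82, 2.59 and 1.60 for Sr02R06C04 and 1.92, 1.78 and 2.11 for Sr01R07C02, all with Taihu higher.

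At months 1, 3, 4 and 5, limma's moderated test was applied, and p-values were adjusted by Benjamini-Hochberg across all 138 positions and called at 0.05. These months also entered the ranking that chose the pair, although month 2 set its order, and their tests share the month 2 arrays' error through the common fit, so they are not independent of the choice. On the breed arrays themselves, ratios were taken as normalized within arrays, without the fit or its dye term. The log2 Taihu over Landrace ratios at months 1, 3 and 4 were -1.06, -1.22 and -1.14 for Sr02R06C04 and -1.06, -1.61 and -0.93 for Sr01R07C02, all with Taihu lower. At month 5 they were 1.66 and 0.56, with Taihu higher at both. Taihu was Cy5 on every breed array, so these ratios hold any dye effect. The fit put it at log2 0.45 (SE 0.19) for Sr02R06C04 and 0.20 (SE 0.11) for Sr01R07C02, toward Cy5. Without the array labelled Taihu month 4 over month 5 it was 0.23 and 0.026.

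At month 1, 1 of the 2 positions passed the threshold, Sr01R07C02, beside 35.5% of all positions. Sr01R07C02 was lower in Taihu by log2 -1.18 (SE 0.30, adjusted p = 0.0177, limma), and by -0.92 without the array labelled Taihu month 4 over month 5 (adjusted p = 0.000966, where 40.6% of all positions passed). The call was lost without Taihu over Landrace at month 1 (log2 -1.08, adjusted p = 0.184), without Landrace month 1 over month 2 (-1.24, 0.0748) and without Taihu month 5 over month 1 (-1.20, 0.0683). Sr02R06C04 measured log2 -1.27 (SE 0.50, adjusted p = 0.0882), and -0.93 without the array labelled Taihu month 4 over month 5 (adjusted p = 0.100). It passed without Landrace month 4 over month 5 (-1.37, 0.0188) and without Taihu over Landrace at month 5 (-1.63, 0.00218). The 3 routes, of which the second goes through month 5, gave log2 -1.06, 0.85 and -0.82 for Sr02R06C04 and -1.06, -0.45 and -0.92 for Sr01R07C02, so 1 route had Sr02R06C04 higher in Taihu.

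At month 3 the count was again 1 of 2, beside 22.5% of all positions. Sr01R07C02 was lower in Taihu by log2 -1.76 (SE 0.30, adjusted p = 0.00527, limma), a 3.38-fold difference, and by -1.68 without the array labelled Taihu month 4 over month 5 (adjusted p = 3.641e-05, where 30.4% of all positions passed). Its 3 routes gave log2 -1.61, -1.81 and -1.59, while those of Sr02R06C04 gave -1.22, 0.0053 and -1.14. Only leaving out Taihu over Landrace at month 3 ended this call among the 15 arrays (-1.69, adjusted p = 0.120). The Landrace channel of that array had r of -0.21 and -0.022 with the other Landrace month 3 readings. Sr02R06C04 measured log2 -1.26 (SE 0.50, adjusted p = 0.117), and -1.16 without the array labelled Taihu month 4 over month 5 (0.0501). Its value was -0.70 without the breed array of month 3, and it passed without Landrace month 4 over month 5 (-1.59, 0.0181) and without Taihu over Landrace at month 5 (-1.38, 0.00599).

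At month 4, 0 of the 2 positions passed with all 15 arrays (limma), beside 24.6% of all positions, with 1 of 2 at an unadjusted p under 0.05 and 0 of 2 by a fit of single-channel levels. The values were log2 -1.06 (SE 0.50, adjusted p = 0.176) for Sr02R06C04 and -0.78 (SE 0.30, adjusted p = 0.0905) for Sr01R07C02. Without the array labelled Taihu month 4 over month 5 both passed, at -1.30 (adjusted p = 0.0302) and -0.97 (adjusted p = 0.00108), beside 41.3% of all positions. The route through month 5, which uses that array, gave log2 1.63 and 0.91 and opposed the other 2 routes at both positions. Both also passed without Landrace month 4 over month 5 (-1.74, 0.0245, and -1.31, 0.000640) and without the month 5 breed array (-1.43, 0.00669, and -0.97, 0.0151). Without the month 4 breed array the values were -0.33 and -0.31.

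At month 5 no breed difference was called at either position (0 of 2, limma, 0 at an unadjusted p under 0.05 and 0 by a fit of single-channel levels, beside 10.9% of all positions). The log2 values were 0.23 (95% interval -0.93 to 1.39, adjusted p = 0.810) for Sr02R06C04 and -0.14 (-0.84 to 0.55, adjusted p = 0.810) for Sr01R07C02. They were 0.91 (-0.14 to 1.96, adjusted p = 0.203) and 0.39 (0.049 to 0.73, adjusted p = 0.119) once the array labelled Taihu month 4 over month 5 was left out, beside 14.5% of all positions called. The fit of single-channel levels without that array called Sr02R06C04 (1.06, adjusted p = 0.0379) and not Sr01R07C02 (0.28, adjusted p = 0.286). The 3 routes disagreed: 1.66, -1.11 and -0.25 for Sr02R06C04 and 0.56, -1.28 and -0.05 for Sr01R07C02, where the first uses the breed array, the second month 4 and the last month 1. The value turned to -1.11 for Sr02R06C04 without the month 5 breed array, and to 0.047 for Sr01R07C02 without Landrace month 4 over month 5. The direction at month 5 is thus not settled by these arrays.

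**Figure D3:**
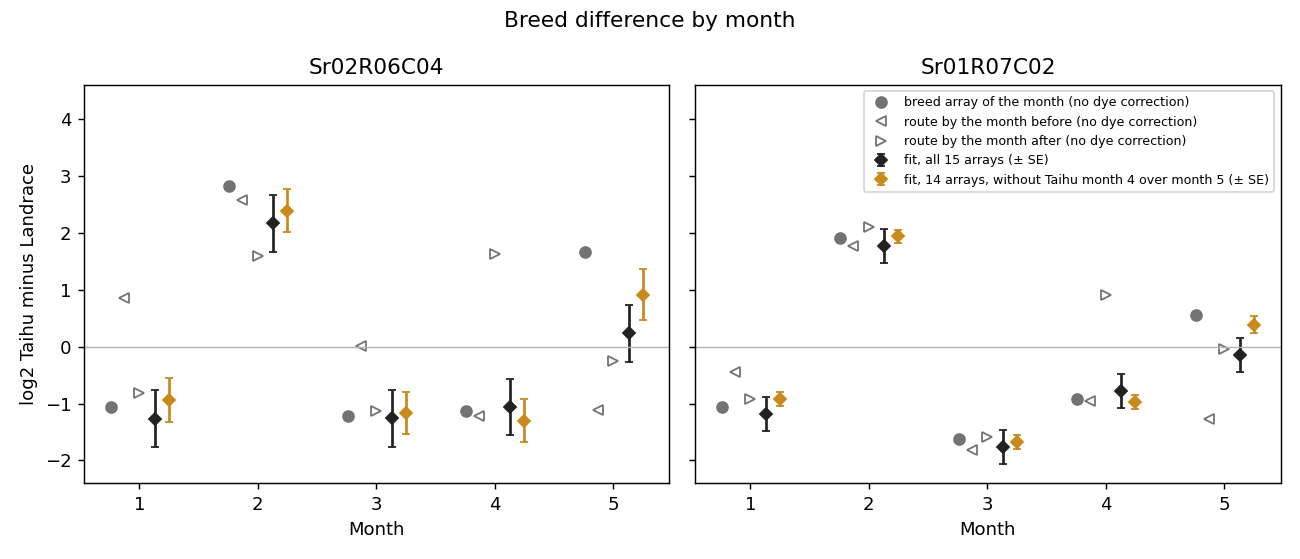
Breed difference (log2 Taihu minus Landrace) by month for Sr02R06C04 (left) and Sr01R07C02 (right): grey points are the 3 routes without dye correction, black diamonds the fit of all 15 arrays and orange diamonds the fit without the array labelled Taihu month 4 over month 5, each with its SE. All markers are above 0 at month 2, while at month 5 the routes spread between -1.11 and 1.66 on the left and between -1.28 and 0.56 on the right.

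Whether the breed difference varied over months 1, 3, 4 and 5 was tested by an F-test of the same fit. It passed for 1 of 2 positions, beside 41.3% of all positions: F = 7.13 for Sr01R07C02 (adjusted p = 0.0378, limma) and F = 3.29 for Sr02R06C04 (adjusted p = 0.146). Without the array labelled Taihu month 4 over month 5 both passed, with F = 57.8 (adjusted p = 0.000252) and F = 8.38 (adjusted p = 0.0213), beside 52.2% of all positions. Leaving out Landrace month 4 over month 5 gave the same F values, since either array closes the same ring of months 4 and 5. For Sr01R07C02 the call held without 3 of the 15 arrays, these 2 and the month 4 breed array (0.0293), and was lost without any one of the others (adjusted p = 0.0660 to 0.118).

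Between the ends of the period both positions fell in Landrace. Landrace month 5 minus month 1 was log2 -2.94 (SE 0.47, adjusted p = 0.00106, limma) for Sr02R06C04 and -2.24 (SE 0.28, adjusted p = 0.000286) for Sr01R07C02, levels 7.65-fold and 4.72-fold lower at month 5. This was 2 of 2 positions, beside 54.3% of all positions, and both calls held without each of the 15 arrays in turn. Leaving out the array labelled Taihu month 4 over month 5 gave -2.89 and -2.20, both called, beside 63% of all positions. The 4 Landrace levels of months 1, 3, 4 and 5 also varied at 2 of 2 positions, beside 55.1% of all positions (adjusted p = 0.00534 and 0.00169, limma), and likewise without that array (0.00105 and 1.3004e-05), beside 65.2%. For Sr01R07C02 this last call was lost without Landrace month 5 over month 1 (0.0589).

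In Taihu both positions were lower at month 5 than at month 1. Taihu month 5 minus month 1 was log2 -1.44 (SE 0.47, adjusted p = 0.0408, limma) for Sr02R06C04 and -1.20 (SE 0.28, adjusted p = 0.00946) for Sr01R07C02, 2 of 2 beside 43.5% of all positions. With the array labelled Taihu month 4 over month 5 left out, these were -1.05 (adjusted p = 0.0561) and -0.89 (adjusted p = 0.000519), 1 of 2 beside 47.1% of all positions. For Sr02R06C04 the call held without 5 of the 15 arrays in turn, namely Landrace month 5 over month 1, Landrace month 4 over month 5, Taihu month 2 over month 3 and the breed arrays of months 4 and 5. Without Taihu month 5 over month 1 the value was -0.71 (adjusted p = 0.681) for Sr02R06C04 and -1.17 (0.187) for Sr01R07C02, the only array that ended the call at Sr01R07C02.

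The change in Taihu minus the change in Landrace between months 1 and 5 was log2 1.50 (SE 0.56, adjusted p = 0.0693, limma) for Sr02R06C04 and 1.04 (SE 0.33, adjusted p = 0.0423) for Sr01R07C02. That was 1 of 2 positions, beside 35.5% of all positions. Without the array labelled Taihu month 4 over month 5 the values were 1.84 (adjusted p = 0.0109) and 1.31 (adjusted p = 0.000263), 2 of 2 beside 46.4%. For Sr01R07C02 the call held without 5 of the 15 arrays in turn, namely Landrace month 3 over month 4, Landrace month 4 over month 5, Taihu month 3 over month 4, Taihu month 4 over month 5 and the month 4 breed array. Without each of the others the adjusted p was 0.0582 to 0.189, and without the month 5 breed array the values were 0.52 for Sr02R06C04 and 0.53 for Sr01R07C02. Sr02R06C04 passed without the month 4 breed array (1.63, 0.0464) or Landrace month 4 over month 5 (1.84, 0.0109). The Taihu levels of months 1, 3, 4 and 5 varied at Sr01R07C02 (adjusted p = 0.0120) but not past the threshold at Sr02R06C04 (0.0561), beside 46.4% of all positions. The p-values were 6.8475e-05 and 0.00824 without the array labelled Taihu month 4 over month 5, beside 56.5% of all positions. The Sr01R07C02 call was lost without Taihu month 5 over month 1 (0.0833), Taihu month 1 over month 2 (0.0853) or Taihu month 2 over month 3 (0.0727). Sr02R06C04 passed without Landrace month 4 over month 5 (0.0178) or the breed array of month 4 (0.0490) or of month 5 (0.00123).

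The courses of the 2 positions are set side by side as a description, since both were chosen for month 2. With month 2 left out, their fitted levels had Pearson r = 0.96 over 8 levels (0.97 without the array labelled Taihu month 4 over month 5), 1.00 over 4 Taihu levels and 0.96 over 4 Landrace levels. With it, their 10 fitted levels had Pearson r = 0.96 (0.97 without the array labelled Taihu month 4 over month 5), and their 15 array ratios had r = 0.95, with arrays, RNA and loess curve in common. Within Taihu r was 0.99 over 5 levels, and within Landrace 0.94 over 5 levels. Over the 30 readings of level r was 0.92, and 0.90 over the 28 without that array. The fitted levels of Sr02R06C04 and Sr01R07C02 were 1.96 and 1.98 at Taihu month 2 and -1.38 and -1.39 at Taihu month 3. The positions were not printed side by side: one is in row 6, column 4 of the second row of blocks and the other in row 7, column 2 of the first.

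**Figure D4:**
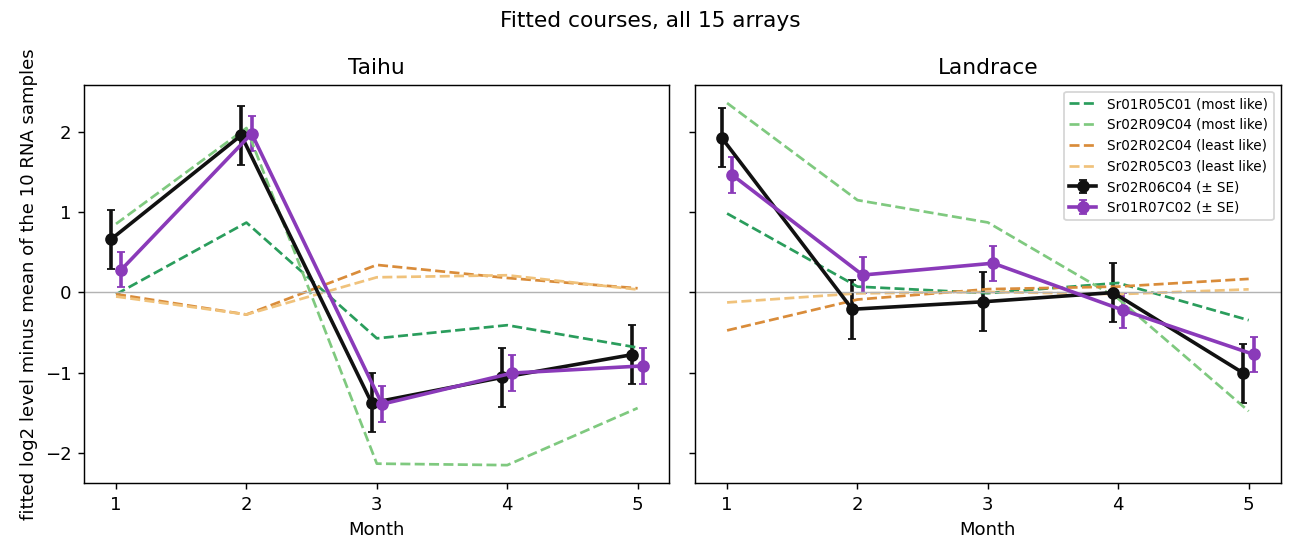
Fitted log2 level (from the mean of the 10 RNA samples) by month in Taihu (left) and Landrace (right) for Sr02R06C04 (black) and Sr01R07C02 (purple), with SE, and for the 2 positions with the most like and the 2 with the least like course (dashed). The pair coincides at Taihu months 2 and 3, and Landrace shows its highest level at month 1 and none of the month 2 peak.

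Other positions shared parts of this course. Of the 136 others, 6 had r of at least 0.9 with the mean course of the pair over the 10 fitted levels, 16 had at least 0.8, and 12 had -0.8 or lower (5, 17 and 11 without the array labelled Taihu month 4 over month 5). The most like were Sr01R05C01 (r = 0.96) and Sr02R09C04 (r = 0.94). Sr01R05C01 had a fitted level of 0.87 in Taihu and 0.07 in Landrace at month 2, but its highest level was Landrace month 1 (0.99) and its lowest Taihu month 5 (-0.69), against -0.57 at Taihu month 3. Sr02R09C04 had 2.05 in Taihu and 1.15 in Landrace at month 2, and 6 of its spot readings were at the scanner ceiling. Its highest level was Landrace month 1 (2.36), and its Taihu level went from 2.05 at month 2 to -2.14 at month 3. The least like were Sr02R02C04 (r = -0.93) and Sr02R05C03 (r = -0.92), whose fitted month 2 levels were -0.28 in Taihu and -0.09 in Landrace, and -0.28 in Taihu and -0.01 in Landrace.

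The order of signs was not rare on the array. By the fit, 23 of 138 positions (16.7%), the pair included, were higher in Taihu at month 2 and lower in Taihu at months 1, 3 and 4, and 25 were without the array labelled Taihu month 4 over month 5. Of the 138, 37 (26.8%) had their highest Taihu level at month 2, and 16 (11.6%) had Taihu month 2 as the highest of all 10 levels, against 33 and 17 without that array. The 8 grid neighbours of Sr02R06C04 had r with its course between -0.91 and 0.92 (median 0.42), against a median of -0.22 for 129 positions further away. The 8 neighbours of Sr01R07C02 had r between -0.79 and 0.93 (median 0.24), against a median of -0.19. The part of place on the array in these courses was not tested.

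The authors' deposited table of log2 ratios, turned here to Cy5 over Cy3, had a value for Sr02R06C04 on 11 of 15 arrays and for Sr01R07C02 on 7 of 15. The sign of the authors' value was that of the ratio computed from the spots on 11 of 11 and 7 of 7 arrays. The direction of that table was itself set against the scanner values, so the match of signs is no independent check. On the month 2 breed array the authors' deposited table gave log2 Taihu over Landrace of 3.29 for Sr02R06C04 and 3.52 for Sr01R07C02, against 2.82 and 1.92 from the spots. For Sr01R07C02 the authors' deposited table had a value there for 2 of the 4 copies. Larger gaps stood elsewhere: for Sr02R06C04 the authors' deposited table gave -3.95 on the month 3 breed array and 3.68 on that of month 5, against -1.22 and 1.66 from the spots. The authors' month 3 value was from 4 copies and their month 5 value from 2. For Sr01R07C02 the authors' deposited table gave -7.09 for Taihu month 5 over month 1, from 1 copy, against -1.02 from the spots.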

How the data were processed

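RNA of 10 backfat samples was measured on 15 two-colour arrays. Each deposited scanner file holds the intensity of 1 channel, as signal and local background per spot on a linear scale, not normalized, written by image software version 5.1 per the file headers. The authors' deposited table holds log2 ratios whose direction and normalization are not stated; set against the scanner values (r between 0.74 and 0.91 per array) it runs as Cy3 over Cy5, and array medians lie between -0.29 and 0.15. Hybridisation and scanning are not described in the labels or headers, and no batch could be formed.

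Background was corrected with normexp (offset 50, mean signal and median background), ratios were normalized within arrays by loess (span 0.3), and the 4 copies were averaged. Weight 0 was given to the first 12 positions of each block, taken as shared spots, and to marked spots. All 140 other positions passed a detection rule (signal over background by 2 background SDs, in 6 or more of 30 readings), and 138 had a value on every array. Limma 3.58.1 in R 4.3.3 fitted 10 levels plus a dye effect, leaving 5 residual degrees of freedom; tests were two-sided with Benjamini-Hochberg adjustment at 0.05. Brightness levels of single readings were not loess-normalized.

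The members, the contrasts and the lists were chosen with earlier results of these data known. Positions named beside the members are the 2 with the highest and the 2 with the lowest r with the members' mean course. The contrast of changes between breeds, with its alternatives, and the single-channel fits were added after seeing the data. The fit was tested on 20 simulated sets for the month 3 breed difference at 138 positions. Of 42 shifted by log2 2, 99.6% were recovered, with 4.01% of calls false. That shift was larger in size than the pair's fitted month 3 differences (log2 -1.26 and -1.76), and no simulated array went against its labels. The rates are taken over all positions and give no recovery rate for the pair. Alternatives changed the background, the normalization, the dye term, weights, spot summary, marked and saturated spots, the filter, single copies and single arrays.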

Additional observations from a re-analysis of the deposited data

Results flagged for a closer look

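At Sr01R07C02 the breed difference (Taihu minus Landrace) varied over months 1, 3, 4 and 5 past the threshold (adjusted p = 0.0378, limma), which marks it as a difference between months that was itself tested. That call held without 3 of the 15 arrays left out in turn and under 12 of 17 other settings. Of all positions, 41.3% passed this F-test. At the same position the change from month 1 to month 5 differed between the breeds by log2 1.04, Taihu minus Landrace (adjusted p = 0.0423, limma), being log2 -1.20 in Taihu and -2.24 in Landrace. This contrast was added after seeing the data, and its call held without 5 of the 15 arrays left out in turn and under 8 of 17 other settings. Both rest on 1 RNA sample for each breed and month.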

How the results depend on the processing

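Beside the values reported, 32 settings were run for 14 tested differences and 6 F-tests of the pair. Of 448 values of the differences, 368 kept direction and side of the threshold, 42 lost the call, 31 gained it and 7 changed sign, all 7 at month 5. Of 192 F values, 155 kept their side, 23 lost the call and 14 gained it. The untested month 2 difference kept its sign in 64 of 64 values. Differences below are log2 Taihu minus Landrace or later minus earlier month; F values test variation over months 1, 3, 4 and 5, and the cause of the moves was not tested. Leaving out each array in turn gave Sr02R06C04 breed differences of -1.64 to -0.93, 1.89 to 2.50, -1.59 to -0.70, -1.74 to -0.33 and -1.11 to 0.91 for months 1 to 5 in order. For Sr01R07C02 they were -1.37 to -0.92, 1.59 to 1.94, -2.02 to -1.63, -1.31 to -0.31 and -0.84 to 0.39. Month 5 minus month 1 ranged over -1.93 to -0.71 (Taihu) and -3.66 to -2.45 (Landrace) for Sr02R06C04, and over -1.45 to -0.89 and -2.55 to -1.98 for Sr01R07C02. The change in Taihu minus that in Landrace ranged over 0.52 to 2.00 for Sr02R06C04 and 0.53 to 1.31 for Sr01R07C02. It gained a call for Sr02R06C04 with no normalization (1.55), array weights (1.53), no spots at the ceiling (1.55), copy 1 alone (1.69) and single-channel levels (1.69, and 2.05 without the array labelled Taihu month 4 over month 5). It lost its call for Sr01R07C02 with plain subtraction (1.11), median centring (0.93), centring on shared positions (0.83), no normalization (1.05), no dye term (1.04) and copies 1 to 4 alone (1.17, 1.05, 0.93 and 1.01). F ranged over 0.997 to 8.38 (breed difference), 2.55 to 29.2 (Taihu) and 7.46 to 43.4 (Landrace) for Sr02R06C04, and over 4.32 to 57.8, 5.05 to 75.2 and 6.09 to 146 for Sr01R07C02. The signs turned at month 5 were -1.11 for Sr02R06C04 without its breed array, and for Sr01R07C02 0.047 without Landrace month 4 over month 5, 0.39 without Taihu month 4 over month 5, 0.054 without a dye term, 0.050 with array weights, 0.13 with copy 4 alone and 0.28 by single-channel levels without the array labelled Taihu month 4 over month 5. For Sr02R06C04, Taihu month 5 minus month 1 lost its call with median centring (-1.38), no normalization (-1.12) and no dye term (-1.44). Array weights gave calls at months 1, 3 and 4 (-1.16, -1.54 and -1.53) and for F of the breed difference (7.10) and of Taihu (9.59). F of Taihu was also called without spots at the ceiling (6.78), with copy 1 (6.29) or copy 2 (5.91) alone and by single-channel levels (4.99), and copy 1 alone called months 1 and 3 (-1.41 and -1.48). Single-channel levels called month 1 (-1.32), and without the array labelled Taihu month 4 over month 5 they called months 1, 3, 4 and 5 (-0.99, -1.02, -1.29 and 1.06) and F of the breed difference (13.9) and of Taihu (18.8). For Sr01R07C02, month 4 was called with array weights (-1.09) and by single-channel levels without that array (-0.84). Its month 1 call was lost without a dye term (-0.99) and with copy 3 (-1.03) or copy 4 (-0.88) alone. Copy 4 alone also lost month 3 (-1.43), Taihu month 5 minus month 1 (-1.10) and F of Taihu (3.56), which no normalization lost as well (4.13). F of its breed difference lost the call with no normalization (3.39), no dye term (5.37) and copy 2 (5.25), copy 3 (3.82) or copy 4 (3.03) alone. Both fits of single-channel levels were chosen after seeing the data.

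Over all positions, the number called for the breed difference ran over 10 to 66 for month 1 (49 as reported), 7 to 47 for month 3 (31), 0 to 68 for month 4 (34) and 0 to 34 for month 5 (15). It moved between 30 and 77 for Taihu month 5 minus month 1 (60), 41 and 89 for Landrace (75), 17 and 64 for the change in Taihu minus that in Landrace (49), 16 and 101 for F of the breed difference (57), 32 and 107 for F of Taihu (64) and 35 and 97 for F of Landrace (76). The authors' deposited table could not be fitted for the pair, which has missing values there. No paired analysis by replicate number was possible because each group holds a single array. The 2 channels of an array are paired in every ratio, and by a random block in the single-channel fits. Precision is limited by 3 arrays for each RNA sample, and the residual SD was 0.61 for Sr02R06C04 and 0.36 for Sr01R07C02.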

Other observations

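The brightness of the 4 printed copies ran in 1 direction across the array at several readings. On the array of Taihu month 5 over month 1, Sr02R06C04 had net intensities of 700.5, 1321, 2937 and 5189 from copy 1 to copy 4 in the month 5 channel, and of 1096, 2507, 6006 and 10809 in the month 1 channel. On the array of Taihu month 2 over month 3, Sr01R07C02 ran the other way, with 6317, 3055, 1094 and 552.5 in the month 2 channel and 393.6, 243.2, 161.9 and 126.8 in the month 3 channel.

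On the array labelled Taihu month 4 over month 5, the 4 copies of Sr02R06C04 had net intensities of 47122, 37187, 38258 and 44051 in the month 4 channel and of 17645, 14235, 14646 and 15608 in the month 5 channel, so no single copy set its high level. Over the 138 positions other than the pair, the reading of another RNA most like this array was Taihu month 2 on its breed array, with r of 0.61 for the month 4 channel and 0.62 for the month 5 channel.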
